A study of Homo sapiens with 9 samples.

Results

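Processed pseudogenes carried 786 of the 108742 small RNA loci in the list deposited with this series, a share of 0.723% (95% interval 0.673 to 0.775%). A locus was counted where at least 1 of its bases lay, on the same strand, in an exon of a GENCODE release 29 gene typed as processed pseudogene or transcribed processed pseudogene. Pseudogenes with names starting in MT were left out. The 786 loci lay on 662 of 10430 such pseudogenes (6.35%), each locus on 1 pseudogene. Placed on the mRNA of the gene the pseudogene was copied from, 482 of 741 loci overlapped a locus of that gene by at least 1 base. At a minimum of 25 bases the share was 50.6% of the loci on copies named after their parent.

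A processed pseudogene arises when the reverse transcriptase of a LINE element copies a spliced mRNA into DNA and the copy is inserted elsewhere in the genome. The copy therefore lacks the introns of its parent gene, often ends in a remnant of the poly(A) tail, and has no promoter of its own unless one lies nearby. Genes that are strongly transcribed in the germ line, such as those for ribosomal proteins, have left many copies. Because the copies resemble the parent mRNA closely, a short read can match the parent and several copies equally well.

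The series sequenced small RNA from MDA-LM2 cells, a lung-metastatic derivative of the MDA-MB-231 breast cancer line, grown in culture. Its 9 libraries were from cells treated with siRNA against DCGR8 (spelled so in the labels), DROSHA and TARBP2 with 2 libraries each, against DICER with 1 library, or with control siRNA with 2 libraries. All groups share the cell line and siRNA treatment, and all 4 targets act in microRNA processing. None of the 9 libraries (0) has values in the data used here, so no knockdown could be compared with control, no value has replicates, and no test between groups was possible. The loci come instead from a list named for the TCGA breast cancer cohort and for the peak caller Piranha, on build hg38 (GRCh38). Its score is 1 in each row, so a locus is present or absent and has no level or depth. Loci lie on a grid of 50 bases, so a locus can be wider than the RNA it marks. How reads that match several places were assigned is not given in the sources used here. Shares below carry exact Clopper-Pearson 95% intervals, which cover counting error only, and copies of 1 parent share sequence and are not independent of each other.

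The sequences show how closely copies on different chromosomes agree around the bases where their loci coincide. Each set gives 50 aligned bases of copies with a locus there, where there is one a copy without, and last the parent. In the copies, capitals mark bases that differ from the parent, and in the parent the longest run that all copies with a locus there share with it. All sequences run 5′ to 3′ on the gene's strand, are taken from the GENCODE release 29 transcripts, and lie in coding sequence of the parent. Coding bases are counted from 1 at the first base of the start codon. Each set of 50 bases is wider than the bases that the loci of all copies with a locus there share. Those shared bases number 7 in PPIA, 5 in EEF1A1, 11 in RPL12, 23 in NUS1 and 26 in RPL10. A run in capitals can therefore reach beyond a copy's locus, as for EEF1A1P3, whose locus ends at coding base 686. The runs were picked from the copies that have loci, so they are descriptions.

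PPIA encodes cyclophilin A, a peptidyl-prolyl isomerase. The stretch shown is coding bases 446 to 495. The copies with a locus there lie at chr21:18858224-18858273 (plus strand), chr6:24976929-24976978 (plus), chr7:144434826-144434875 (minus) and chr3:60732147-60732196 (minus), and PPIAP2, which has no locus, at chr20:25368275-25368324 (minus). The parent's bases are chr7:44801370-44801419 (plus).
PPIAP22: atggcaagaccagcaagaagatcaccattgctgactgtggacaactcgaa
PPIAP29: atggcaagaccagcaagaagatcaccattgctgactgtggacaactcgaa
PPIAP83: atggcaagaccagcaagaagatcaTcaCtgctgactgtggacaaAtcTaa
PPIAP71: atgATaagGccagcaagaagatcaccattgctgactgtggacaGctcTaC
PPIAP2: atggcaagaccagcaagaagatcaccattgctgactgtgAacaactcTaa
PPIA: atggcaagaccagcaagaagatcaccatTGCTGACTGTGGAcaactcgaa
PPIAP22 and PPIAP29 equal the parent over all 50 bases, so a read that lies within them matches all 3 genes equally well.

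EEF1A1 encodes the elongation factor that brings aminoacyl-tRNAs to the ribosome. The stretch shown is coding bases 660 to 709. The copies with a locus there lie at chr9:133020145-133020194 (plus), chr7:22511292-22511341 (minus), chr13:28215174-28215223 (plus) and chr15:52937811-52937860 (minus). EEF1A1P9 has its locus elsewhere, and its matching bases are chr4:105485351-105485400 (plus). The parent's bases are chr6:73518761-73518810 (minus).
EEF1A1P5: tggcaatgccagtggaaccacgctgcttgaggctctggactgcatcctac
EEF1A1P6: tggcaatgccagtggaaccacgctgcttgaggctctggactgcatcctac
EEF1A1P3: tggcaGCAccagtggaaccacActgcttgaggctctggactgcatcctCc
EEF1A1P22: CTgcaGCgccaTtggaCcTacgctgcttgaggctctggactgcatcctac
EEF1A1P9: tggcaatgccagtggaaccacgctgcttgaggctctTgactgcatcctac
EEF1A1: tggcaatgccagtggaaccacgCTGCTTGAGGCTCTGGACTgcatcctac

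RPL12 encodes a protein of the large ribosomal subunit. The stretch shown is coding bases 142 to 191. The copies with a locus there lie at chr6:33400366-33400415 (minus), chr2:203190921-203190970 (plus), chr10:67874561-67874610 (plus) and chr15:72379520-72379569 (minus), and RPL12P12, which has no locus, at chr20:19823753-19823802 (minus). The parent's bases are chr9:127449629-127449678 (minus).
RPL12P1: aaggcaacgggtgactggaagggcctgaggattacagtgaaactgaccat
RPL12P16: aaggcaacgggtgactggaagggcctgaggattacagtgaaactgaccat
RPL12P8: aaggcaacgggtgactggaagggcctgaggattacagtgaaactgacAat
RPL12P35: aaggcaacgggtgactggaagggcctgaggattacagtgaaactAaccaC
RPL12P12: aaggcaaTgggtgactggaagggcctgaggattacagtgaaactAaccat
RPL12: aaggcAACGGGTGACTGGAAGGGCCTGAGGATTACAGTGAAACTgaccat

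NUS1 encodes a subunit of the enzyme that makes the lipid carrier dolichol, and each of its 4 annotated copies had a locus. The stretch shown is coding bases 821 to 870. The copies lie at chrX:47512614-47512663 (minus), chr13:24329014-24329063 (plus), chr13:22916465-22916514 (plus) and chr13:98610301-98610350 (minus), and the parent's bases at chr6:117706954-117707003 (plus).
NUS1P1: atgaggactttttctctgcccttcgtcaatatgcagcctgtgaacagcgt
NUS1P3: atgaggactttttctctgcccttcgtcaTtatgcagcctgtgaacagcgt
NUS1P2: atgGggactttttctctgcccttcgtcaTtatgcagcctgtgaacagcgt
NUS1P4: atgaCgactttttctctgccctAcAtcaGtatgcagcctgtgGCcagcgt
NUS1: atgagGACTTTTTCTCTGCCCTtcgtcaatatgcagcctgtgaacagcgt

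RPL10, another protein of the large ribosomal subunit, is shown because its copies had loci where the parent had none. The stretch shown is coding bases 162 to 211. The copies with a locus there carry it unbroken, at chr19:12643709-12643758 (minus), chr5:168616513-168616562 (plus), chr21:27420813-27420862 (minus) and chr3:119635946-119635995 (minus). RPL10P2, which has no locus, has its matching bases at chr6:27211401-27211450 (plus). In the parent the 50 bases lie on both sides of an intron, at chrX:154399566-154399594 and chrX:154399803-154399823 (plus).
RPL10P16: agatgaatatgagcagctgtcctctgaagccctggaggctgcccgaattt
RPL10P9: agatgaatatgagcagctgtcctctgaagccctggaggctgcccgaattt
RPL10P1: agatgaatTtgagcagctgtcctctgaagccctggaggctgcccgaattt
RPL10P7: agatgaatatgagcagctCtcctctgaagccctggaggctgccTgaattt
RPL10P2: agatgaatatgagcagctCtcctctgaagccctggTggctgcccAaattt
RPL10: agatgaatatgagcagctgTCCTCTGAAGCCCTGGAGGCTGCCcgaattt

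Among the parent families, EEF1A1 copies had a locus most often. A locus lay on 19 of 37 EEF1A1 pseudogenes (51.4%, 95% interval 34.4 to 68.1%), on 10 of 61 GAPDH pseudogenes (16.4%, 8.15 to 28.1%), on 84 of 733 RPL pseudogenes (11.5%, 9.24 to 13.99%) and on 42 of 404 RPS pseudogenes (10.4%, 7.60 to 13.8%). GAPDH encodes a glycolytic enzyme, and RPL and RPS genes encode proteins of the large and small ribosomal subunits. Pseudogenes of all other families had a locus in 507 of 9195 cases (5.51%, 5.06 to 6.00%). The interval for EEF1A1 lies above those of the other families, while the intervals for GAPDH, RPL and RPS overlap. By number, the loci were 38 on EEF1A1 copies, 12 on GAPDH copies, 91 on RPL copies, 48 on RPS copies and 597 on the rest. The copies differ in length, with medians of 1378 exonic bases for EEF1A1, 994 for GAPDH, 478 for RPL and 458 for RPS. Per Mb of exon the loci numbered 829.8, 205.1, 226.8 and 213.3 in the same order. EEF1A1 and GAPDH are 1 parent gene each, while RPL and RPS pool 46 and 31.

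The parent genes had loci far more often than their copies. Of the parents, 43 of 46 RPL genes (93.5%) and 28 of 31 RPS genes (90.3%) had an exonic locus, and EEF1A1 and GAPDH, at 1 of 1 gene each (100%), had 6 and 5. Over all symbols, 438 of 5077 pseudogenes named after a coding gene had a locus (8.63%, 7.87 to 9.43%), against 770 of 1427 of their parent genes (54%, 51.3 to 56.6%). The copies are shorter, with a median of 602 exonic bases per gene, against 4296 for the parents. Per Mb of exon the copies had 130.6 loci and the parents 233.6.

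**Figure D1:**
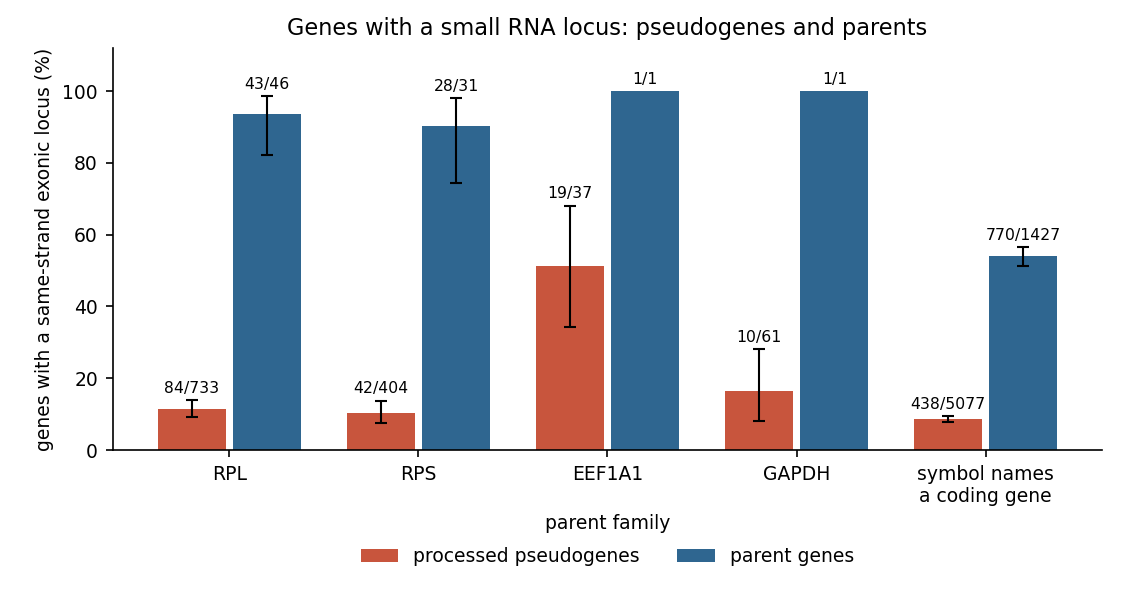
Percent of genes with at least 1 same-strand exonic locus, for processed pseudogenes (red) and their parent genes (blue) by parent family, with the number of genes over each bar and exact 95% intervals as error bars (none for a family with 1 parent). EEF1A1 copies stand at 51.4%, above the copies of the other families, and all families of parents stand above their copies.

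Set against other gene classes, the share for processed pseudogenes had an interval that overlapped that of lncRNAs and lay below the share for coding genes. The share with a locus was 6.35% for processed pseudogenes (5.89 to 6.83%), against 5.01% for 3535 unprocessed pseudogenes (4.31 to 5.78%), 5.92% for 15006 lncRNA genes (5.55 to 6.31%), 35.6% for 19969 protein-coding genes and 19.9% for all 58780 GENCODE genes. Unprocessed pseudogenes derive from duplicated genes and keep introns. Per Mb of exon, processed pseudogenes had 102.9 loci, against 45.4 on unprocessed pseudogenes, 50.67 on lncRNA genes and 147.2 on protein-coding genes. The processed copies thus had over 2 times the density of unprocessed ones at a smaller median length of 541 against 849 exonic bases.

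Pseudogenes annotated as transcribed had loci more often than those that are not. A locus lay on 56 of 478 transcribed processed pseudogenes (11.7%, 8.97 to 14.9%) and on 606 of 9952 others (6.09%, 5.63 to 6.58%). The transcribed ones are also longer, with a median of 1161 against 526 exonic bases, and per Mb of exon the order was the other way, at 97.97 against 103.4 loci. Length moved with the share among copies named after a coding gene as well. A locus lay on 5.16% of copies under 500 exonic bases, on 9.27% of those from 500 to 1000 and on 13.4% of longer ones.

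Copies with a locus resembled their parent mRNA more closely than copies without. The median identity over the whole copy was 93.9% for 428 aligned copies with a locus and 89.9% for 4556 without. By family the medians were 95.2% against 90.3% for RPL, 94.0% against 89.4% for RPS, 93.8% against 86.0% for EEF1A1 and 91.2% against 84.8% for GAPDH. The quartiles for all named copies were 90.7 to 96.6% with a locus and 84.9 to 93.5% without, so the ranges overlap.

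The share of copies with a locus moved with both the identity and the parent's own loci. Copies of parents with an exonic locus had one in 391 of 3297 cases (11.9%, 10.8 to 13.01%), against 47 of 1780 copies of parents without (2.64%, 1.95 to 3.50%). Where the parent had a locus, the share was 2.58% for copies under 85% identity, 6.64% from 85 to 90%, 14.5% from 90 to 95% and 28.1% (143 of 509) above. Where the parent had none, it was 1.53%, 2.79%, 1.96% and 4.09% (13 of 318) in the same order. Identity thus went with a steep gradient among copies of parents with loci, while among copies of parents without loci the intervals of all 4 classes overlap.

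Copies with a locus were spread over many parent genes. The 5077 named copies have parents under 1424 symbols, and 227 of these parents had at least 1 copy with a locus. The 10 parents with most such copies, ranked by this count, hold 133 of the 438 copies with a locus and 466 of all 5077. RPL7, a protein of the large subunit, led with 26 of 61 copies (42.6%, 30.0 to 55.9%). PPIA followed with 20 of 88 (22.7%), EEF1A1 with 19 of 37, RPS7 of the small subunit with 11 of 15 (73.3%, 44.9 to 92.2%), and RPL12 with 10 of 49 (20.4%). GAPDH with 10 of 61 and RPL23A with 10 of 90 (11.1%) came next. The last of the 10 were ACTG1, which encodes cytoplasmic gamma-actin, with 9 of 20 (45%), FTH1, the heavy chain of the iron store ferritin, with 9 of 22 (40.9%), and RPS4X with 9 of 23 (39.1%).

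Other parents with many copies had none with a locus. Of 94 parents with at least 10 annotated copies, 47 had no copy with a locus. The lowest by the naming rule were HNRNPA1, an hnRNP protein of pre-mRNA processing, with 0 of 72 copies (interval up to 4.99%), RPL21 with 0 of 66 (up to 5.44%) and HMGB1, a chromatin protein, with 0 of 47 (up to 7.55%). HNRNPA1 and HMGB1 had 0 exonic loci of their own, and RPL21 had 3, of which 0 lay on its main mRNA.

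**Figure D2:**
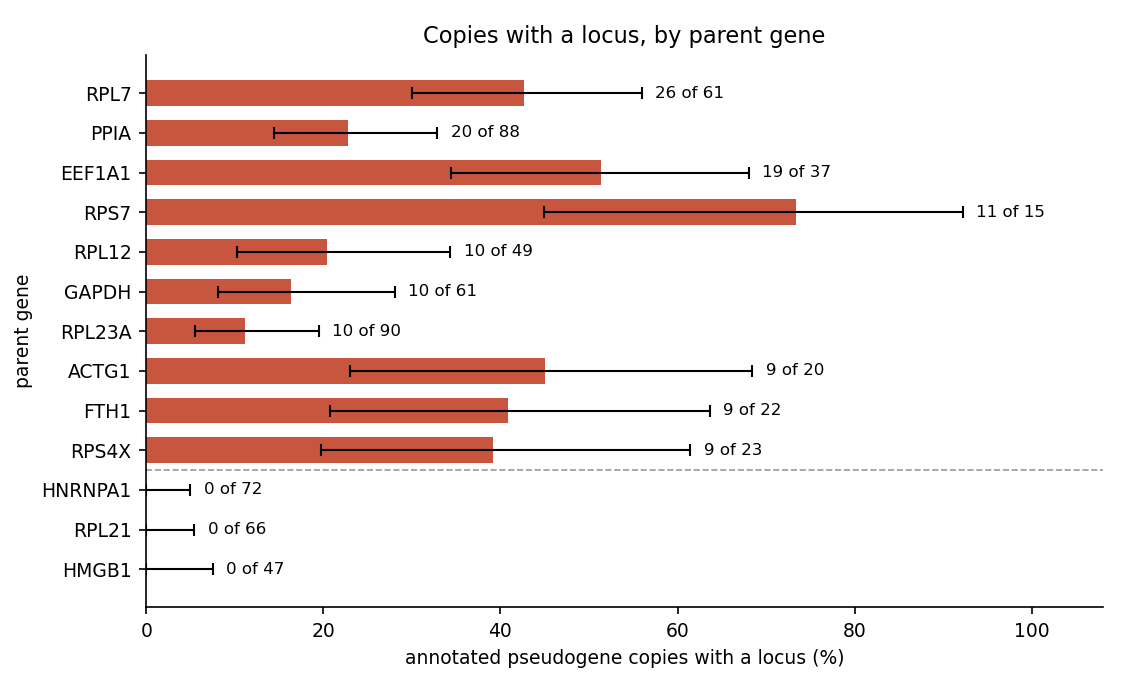
Percent of annotated pseudogene copies with a locus, for the 10 parents with most such copies (above the dashed line) and the 3 lowest among parents with at least 10 copies (below it), with exact 95% intervals. The shares run from 73.3% for RPS7 to 0 for HNRNPA1, RPL21 and HMGB1, whose intervals end at 7.55% or lower.

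Lists of parents grouped by function differed in the share of copies with a locus, and each is read against the 8.63% of all named copies. In the cytoskeletal, ferritin, other glycolytic, other translation, chaperone and keratin lists each parent had a locus of its own. Copies of all parents with a locus had one in 11.9% of cases, which is the closer comparison for these lists. The lists were drawn up with earlier results of these data known and are given as counts without a test. Among cytoskeletal genes it was 25 of 81 copies (30.9%, 21.1 to 42.1%), led by ACTG1 and by ACTB, which encodes beta-actin, with 6 of 9. Among ferritin genes it was 14 of 38 (36.8%, 21.8 to 54.0%), with 9 of 22 for FTH1 and 5 of 16 for the light chain FTL. Other glycolytic genes had 12 of 38 (31.6%, 17.5 to 48.65%), among them ALDOA (aldolase A) with 2 of 2 and LDHA (lactate dehydrogenase A) with 2 of 6.

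The intervals of these 3 lists lie above both 8.63% and the 11.9% for copies of parents with a locus. Those of translation genes and chaperones, given next, lie above 8.63% but hold 11.9%. Other translation genes had 14 of 85 copies with a locus (16.5%, 9.31 to 26.1%), led by the helicase EIF4A1 with 4 of 13 and the poly(A)-binding protein PABPC1 with 3 of 12. Chaperones and peptidyl-prolyl isomerases had 25 of 157 (15.9%, 10.6 to 22.6%), of which PPIA gave 20 and the heat shock protein HSPA8 gave 5 of 16, so 2 parents hold the whole count.

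Of the remaining lists, the first 3 below have intervals that hold 8.63%, and that of RNA and chromatin binding genes ends below it. Ubiquitin, 14-3-3 and proteasome genes had 7 of 51 (13.7%, 5.70 to 26.3%), with YWHAZ, a 14-3-3 protein, at 3 of 8 and the proteasome subunit PSMA6 at 1 of 4. Epithelial keratins, which form intermediate filaments, had 14 of 121 (11.6%, 6.47 to 18.65%), with KRT8 at 7 of 50 and KRT18 at 4 of 66. Genes of mitochondrial transport and respiration had 7 of 156 (4.49%, 1.82 to 9.03%), with COX6C at 1 of 17 and NDUFB4 at 1 of 12. RNA and chromatin binding genes had 13 of 344 (3.78%, 2.03 to 6.38%), although HNRNPK had 4 of 5 and SERBP1 had 2 of 6.

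When loci were placed on the parent mRNA by aligning copy and parent, a larger share than of all bins fell where the parent had a locus too. Of the 786 loci, 741 could be placed, and 482 of these (65.0%, 61.5 to 68.5%) overlapped a locus of the parent by at least 1 base. Among copies named after their parent it was 348 of 510 (68.2%, 64.0 to 72.3%). All 50-base bins of the same copies, with and without loci, did so in 2187 of 8142 cases (26.9%, 25.9 to 27.8%). Since wider loci reach a parent locus more easily, the loci of a single bin were counted too, with 294 of 451 (65.2%, 60.6 to 69.6%). Copies and parents do not share the grid, so a short overlap can come from its offset, and with at least 25 bases of overlap the share fell to 50.6%. The share of bins was counted at 1 base only, so the 50.6% has no share of bins to be read against.

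In each of the 4 families the share was higher for loci than for bins, and the intervals were apart in all but GAPDH. Loci over a parent locus were 32 of 38 for EEF1A1 (84.2%, 68.75 to 94.0%) against 38.2% of bins, 75 of 90 for RPL (83.3%, 74.0 to 90.4%) against 34.8%, and 37 of 47 for RPS (78.7%, 64.3 to 89.3%) against 36.6%. For GAPDH it was 9 of 12 (75%, 42.8 to 94.5%) against 58.0% of bins (51.0 to 64.9%). GAPDH's own loci cover 29.3% of the parent mRNA, more than the 13.1% of EEF1A1, 11.7% of RPL7 or 5.41% of PPIA. For parents with under 10% of the mRNA covered, 51.6% of the loci of copies lay over a parent locus, against 443 of 4489 bins (9.87%).

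**Figure D3:**
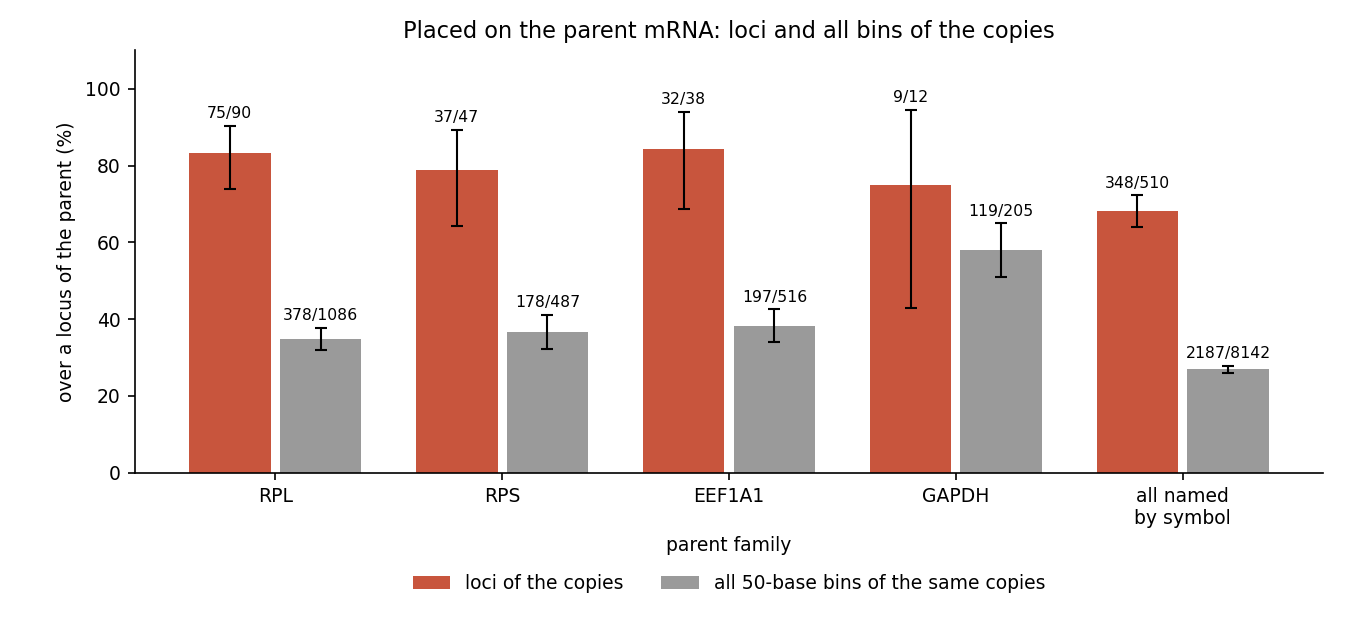
Percent lying over a locus of the parent once placed on the parent mRNA, for the loci of the copies (red) and for all 50-base bins of the same copies (grey), by family, with counts and exact 95% intervals. The loci stand at 75 to 84.2% in the 4 families and the bins at 34.8 to 58.0%, and the intervals are apart in each family except GAPDH.

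The loci of different copies of 1 parent also coincided with each other. Of 59 parents with at least 2 copies with a locus, 55 had at least 2 copies whose loci shared bases on the parent mRNA, and for 31 all such copies did. No count was made for loci placed at random, so these counts have no background to be read against. Many loci on a short mRNA have to share bases, as with the 25 placed loci of RPL7 copies on 1101 bases. Parent loci also cover much of some mRNAs, such as 77.1% of KRT19. Taking the first stretch with most copies, the shared bases lay under a locus of the parent in 43 of the 55 and not in 12. The 12 include RPL7, where a further stretch shared by as many copies lies under the parent locus at coding bases 401 to 428.

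PPIA gave the plainest case. All 20 copies with a locus had it over 1 parent locus at coding bases 427 to 526, at the end of the coding sequence. A second stretch, bases 69 to 122, had loci on 2 copies, PPIAP22 and PPIAP29, which equal the parent there. The parent has an exon junction within it and no locus.

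In EEF1A1, whose parent has 6 loci, 16 of the 19 copies had a locus over bases 670 to 769. The other parent loci in the coding sequence had copies over them less often, with 5 copies at bases 933 to 982 and 4 copies each at 27 to 76, 453 to 502 and 1144 to 1193. Outside the parent's loci, 4 copies, EEF1A1P5, EEF1A1P11, EEF1A1P12 and EEF1A1P22, had a locus within bases 216 to 276. EEF1A1P5 had 6 loci, the most of any processed pseudogene, and 5 of these placed over parent loci.

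RPL7 copies had loci over bases 401 to 428 in 20 of 26 cases, and over 490 to 538 in 9. In RPS7, 9 of 11 copies had one over bases 292 to 332, in RPL12 9 of 10 over 120 to 169, and in RPL23A 10 of 10 over 387 to 456. FTH1 copies had loci over bases 130 to 179 (6 of 9) and 274 to 323 (5 of 9), both with parent loci. FTH1P2, FTH1P10, FTH1P11 and FTH1P20 had loci over both. In RPS4X, 6 of 9 copies had one over bases 483 to 532. ACTG1 copies lay over the wide parent locus at bases 440 to 789 in 7 of 9 cases, in an mRNA with 62.6% of its bases covered. All 4 NUS1 copies lay over 818 to 867.

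**Figure D4:**
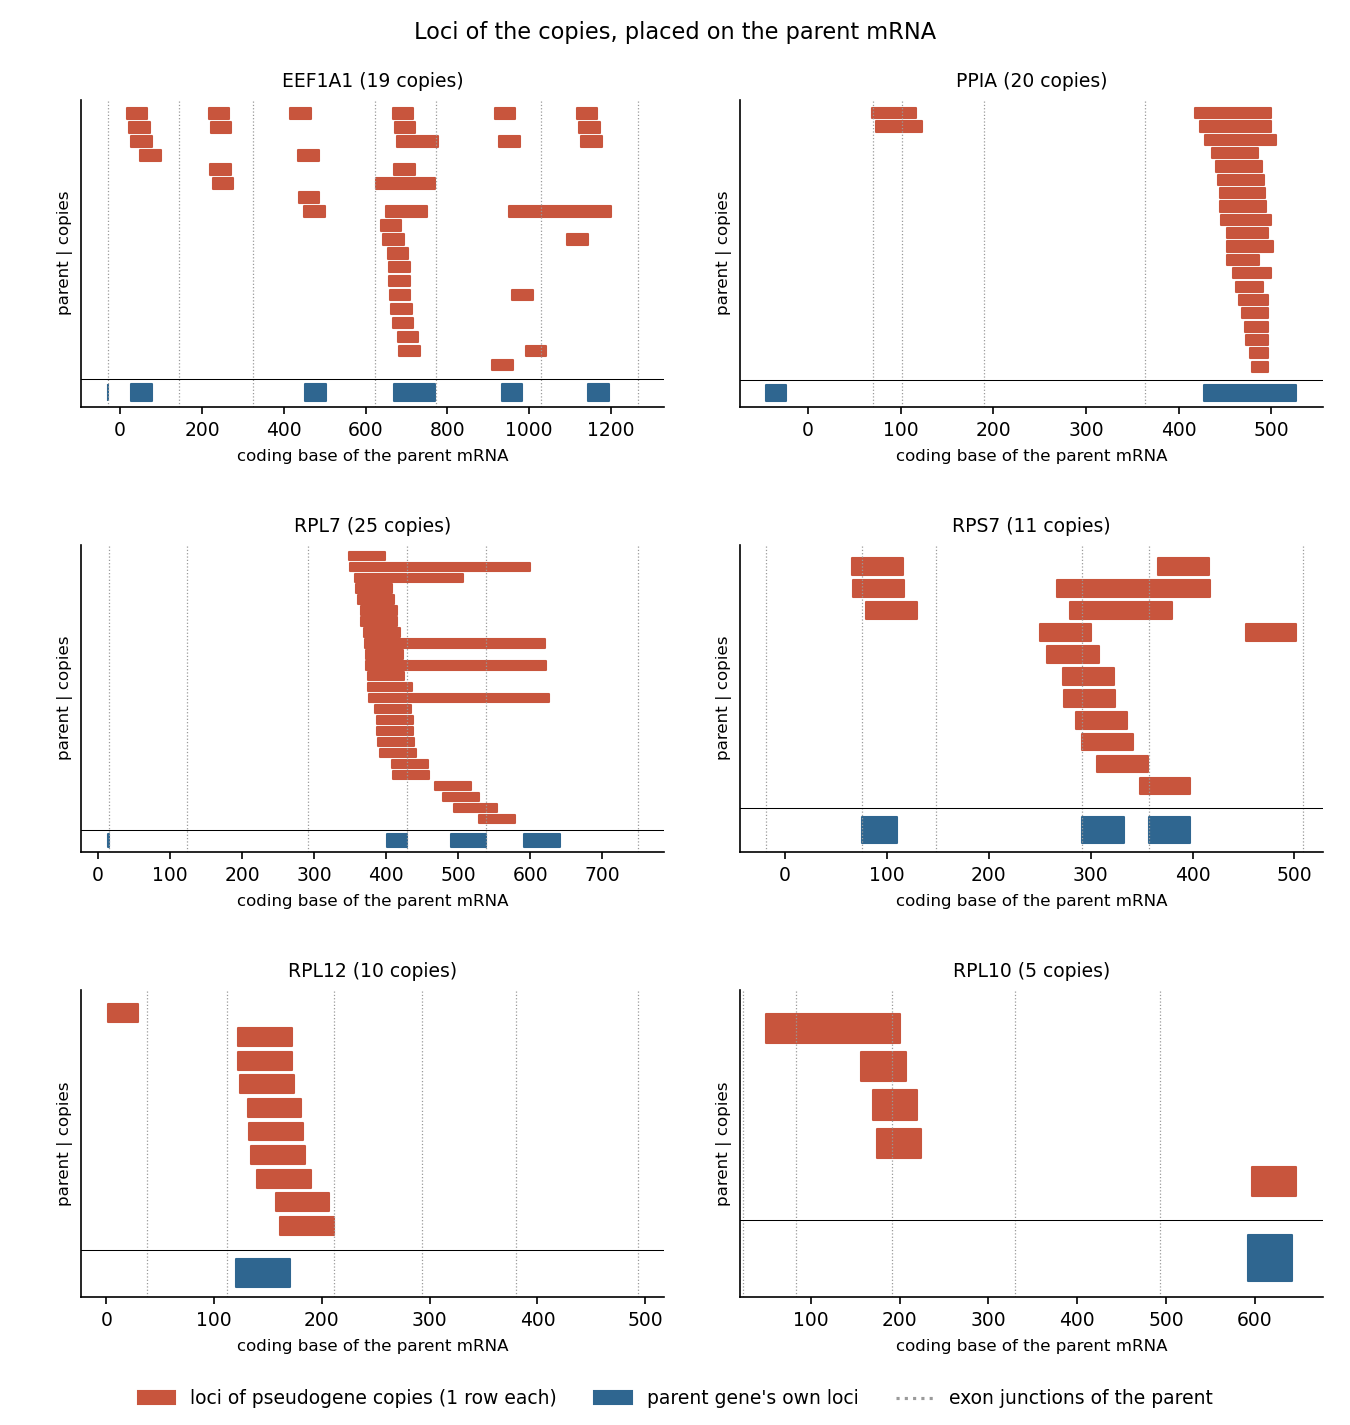
Loci of pseudogene copies (red, 1 row per copy) placed on the coding bases of 6 parent mRNAs, above the parent's own loci (blue); dotted lines are the parent's exon junctions. In PPIA all 20 copies lie over 1 parent locus, in EEF1A1 16 of 19 lie over 1 of its loci, and in RPL10 4 of 5 copies meet at a junction where the parent has no locus.

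In RPL10 the copies met away from the parent's locus. Of 5 copies with a locus, 4 had it within coding bases 50 to 223, across the parent's exon junction at base 191, and 1 lay over the parent's only mRNA locus at 592 to 641. The 4 copies and the parent share the 24 bases shown in capitals above, which span that junction. A junction also lay in the 50 bases around the centre of the shared stretch for 3 more of the 12 parents without a locus there, RHOT1, TPI1 and TXN, each with 2 copies, which are named because their values were seen. With RPL10 this makes 4 of 12, against 8 of the 43 parents with a locus at the shared stretch. RHOT1 has 0 loci of its own anywhere, as have HMGB3 and IMPDH1 among the 12. Its lack of a locus at the stretch is therefore not particular to the junction.

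Over all copies, loci spanned a parent junction about as often as bins did. With at least 5 bases on each side, 125 of 451 single-bin loci did so (27.7%, 23.6 to 32.1%), against 24.6% of all bins of the same copies (23.6 to 25.5%). Of the loci placed away from any parent locus, 57 of 162 spanned one (35.2%, 27.9 to 43.1%), against 106 of 348 over a parent locus (30.5%, 25.7 to 35.6%), and the intervals overlap.

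At the shared stretch, copies with a locus had fewer mismatches to the parent in most but not all families. A copy counts as with a locus only where its locus reaches the shared bases. Some of the other copies had a locus in the 50 bases around the stretch that missed the shared bases, such as RPL7P10, RPL7P27, RPS7P4 and RPS4XP16. Of 50 parents with copies of both kinds aligned there, the median was lower with a locus in 42, equal in 2 and higher in 6, among them ACTB with 7 against 6. In the 50 bases around it, the 20 PPIA copies with a locus had a median of 1 mismatch (0 to 6), against 3 in 58 copies without (1 to 8). The medians were 0 against 6 for RPL12, 0 against 3 for FTH1, 2 against 6 for RPL7, 2 against 5.5 for EEF1A1, 2 against 6 for GAPDH and 3 against 6 for RPS7. For RPS4X they were 2 against 4, for RPL23A 3 against 4, and for RPL10 0.5 against 5.5. The ranges overlap in each of these except FTH1 and RPL10. For RPL10 only 4 copies of each kind, of 19 annotated, had at least 40 aligned bases there. Copies left out include RPL10P6 and RPL10P15, which have no locus although their identity to the parent is 98.1% and 97.5%.

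Copies of like resemblance differed in whether they had a locus. EEF1A1P9, printed above, differs from the parent by 1 base in the window and had no locus there, while EEF1A1P22 differs by 7 and had one. RPL12P4 had 0 mismatches over 49 aligned bases and RPL12P42 had 1 over 50, and neither had a locus. RPL12P35, with 2 mismatches, had one. In RPL12, RPS7 and FTH1 the runs common to all copies with the shared locus were 39, 26 and 51 bases long. They were kept whole in 0 of 35, 1 of 7 and 0 of 14 copies without a locus over the shared bases. The 1 is RPS7P4, whose locus at coding bases 306 to 355 misses the shared bases but overlaps the run. In PPIA the common run was 13 bases and was whole in 13 of 57 copies without. In RPL7 a run of 21 bases was whole in 6 of 41 such copies, and in GAPDH one of 22 bases in 3 of 49. The runs were defined from the copies with the locus, which therefore keep them by construction. These counts are descriptions and no test of a difference.

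**Figure D5:**
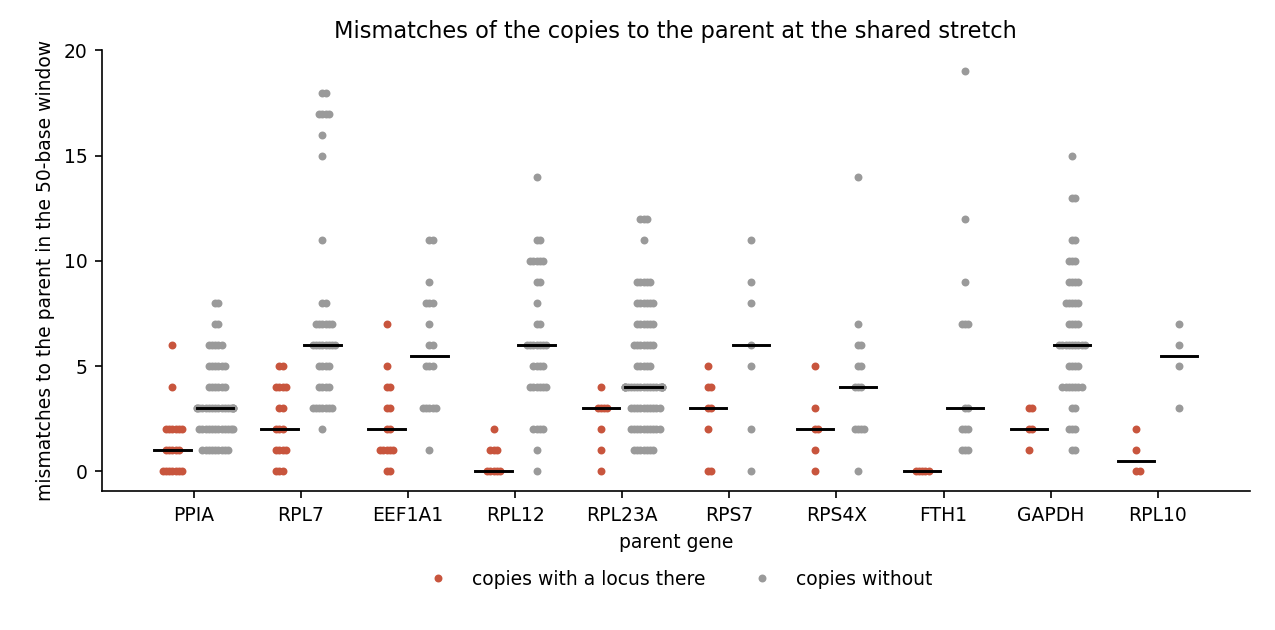
Mismatches to the parent in the 50-base window around the shared stretch, 1 point per copy with at least 40 aligned bases. Red marks copies with a locus over the shared bases and grey the other copies, and black lines are medians. Some grey copies have a locus elsewhere in the window. Copies with a locus have the lower median for all 10 parents, from 0 against 6 in RPL12 to 3 against 4 in RPL23A.

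Part of the loci could not be assigned by sequence. Each locus was read as overlapping words of 22 bases, near the length of a microRNA, and the words were looked up in the transcripts of all other genes. Of 752 loci with at least 1 word in the exon, 204 (27.1%, 24.0 to 30.5%) had each word in another gene as well, and 127 (16.9%, 14.3 to 19.8%) had none. In EEF1A1 copies 20 of 38 were shared throughout and 0 held no shared word. For GAPDH these were 1 and 0 of 12, for RPL 37 and 3 of 91, and for RPS 11 and 8 of 47. Other families had 135 of 564 shared throughout (23.9%) and 116 without a shared word (20.6%, 17.3 to 24.1%).

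Among placed loci, identical stretches were more common than in the bins. A run of at least 22 bases identical to the parent lay in 332 of 451 single-bin loci (73.6%, 69.3 to 77.6%), against 59.5% of all bins of the same copies and 40.9% of bins of all named copies. No mismatch at all was found in 89 of 451 (19.7%, 16.2 to 23.7%), against 15.4% (14.6 to 16.2%) and 6.79%. Whether a locus on a copy holds RNA of the copy, or reads of the parent placed there, was not tested.

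A few pseudogenes carried several loci. EEF1A1P5 with 6 was followed by HSP90AA2P with 5, whose closest coding gene is HSP90AA1, a cytosolic chaperone. Then came 5 pseudogenes with 4 loci, which were EEF1A1P11, EEF1A1P13, TUBAP2, HSP90AB3P and HSPA8P5. TUBAP2 is closest to TUBA1B, an alpha-tubulin, and HSP90AB3P to HSP90AB1. A further 12 had 3 loci, 76 had 2 and 567 had 1.

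In HSP90AA2P, 4 of 5 loci lay over loci of HSP90AA1, and the fifth, at coding bases 1137 to 1186 and identical to the parent, crossed a parent junction. KRT19P1, a copy of keratin 19, had 3 loci over 33.7% of its bases. FTLP2 had 3 over 24.2%. In the RPL family no copy had more than 2, with RPL37AP1 at 46.2% covered, RPL3P4 at 35.5% and RPLP0P6 at 31.4%. In the RPS family RPS7P11 had 2 loci over 34.1% and RPS11P5 had 2 over 31.0%.

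Loci on copies were narrow. The width was 50 bases for 701 of the 786 and 100 or more for 85 (10.8%, 8.73 to 13.2%), against 13.9% of loci on coding exons, 16.2% on parent genes and 6.70% on unprocessed pseudogenes. The widest, of 300 bases at chr8:30352201-30352500, lay on TUBBP1, a copy of the beta-tubulin gene TUBB, with 2 mismatches to the parent. Loci of 250 bases numbered 10. In order of symbol, the first 4 lay on EEF1A1P6 at chr7:22510801-22511050, HSP90AB3P at chr4:87892951-87893200, KRT19P1 at chr6:71585001-71585250 and NAMPTP1 at chr10:36523151-36523400, with 3, 4, 16 and 1 mismatches. Of the other 6, 4 lay on the RPL7 copies RPL7P1, RPL7P9, RPL7P23 and RPL7P32 and 1 on TUBAP2. The last, on RPLP0P6, equals RPLP0, a protein of the ribosomal stalk, without a mismatch.

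Most loci followed the strand of the pseudogene. Of 794 pseudogenes with loci on unequal strands, 643 had more on their own strand (81.0%, 78.1 to 83.7%), and 18 were tied. By family it was 10 of 10 for GAPDH, 42 of 44 for RPS, 19 of 20 for EEF1A1, 83 of 94 for RPL and 489 of 626 for the others (78.1%, 74.7 to 81.3%). A further 183 loci lay opposite to pseudogene exons, of which 16 were on an exon of a gene of that strand. Along the copies, 388 of 786 midpoints lay nearer the 5′ end (49.4%, 45.8 to 52.9%), an interval that holds 50%.

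Few loci could belong to another annotated exon. On the same strand 27 (3.44%, 2.28 to 4.96%) also overlapped an exon of another gene, of which 15 were protein-coding, 3 were microRNA genes and 3 were snRNA genes. The microRNA cases were MIR492 within KRT19P2, MIR4788 within HMGB3P13 and MIR3654 within AC008038.1, named because their values were seen. RPL12P16, printed above, lies in an exon of NBEAL1. A further 91 loci (11.6%, 9.43 to 14.02%) lay within the span of a coding gene on the same strand but outside its exons, where RNA of the host gene's introns and of the copy cannot be told apart.

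Pseudogenes whose symbol names no coding gene had a locus in 224 of 5353 cases (4.18%, 3.66 to 4.76%). By sequence the 224 were closest to RPL6 in 6 cases, to RPS18 in 5 and to HSP90AA1, HSP90AB1, RPS10, RPS20 and the mitochondrial gene MT-CO1 in 4 each, while 9 matched none. The loci of the 224 lay over a locus of the closest gene in 134 of 231 placed cases (58.0%, 51.4 to 64.45%). Bins were not counted for these copies, so this share has no background.

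Parents and copies were linked at the level of genes too. Of the 227 parents with a copy with a locus, 184 had a locus of their own (81.1%, 75.3 to 85.9%), against 585 of 1197 parents whose copies had none (48.9%, 46.0 to 51.75%). This left 43 parents without a locus that had one on a copy. Coding genes after which no processed pseudogene is named had a locus in 34.2% of 18542 cases. By chromosome, copies with a locus ran from 2.73% of 220 pseudogenes on chromosome 18 to 9.03% of 288 on chromosome 19.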

How the data were processed

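Small RNA was sequenced from 9 libraries in 5 groups, but no library has values in the data used here (0 of 9 have a column). The authors deposited 1 list of loci in BED form whose score is 1 throughout, so no unit with depth exists and the loci are used as present or absent. Per the submitters' processing notes, build hg38 and cutadapt, Bowtie2 2.2.8, SAMtools and bedtools were used. The caller's threshold is, like the cohort's size and the treatment of reads with several matches, not given in the sources used here. Positions were converted to a count from 1. Loci were assigned to GENCODE release 29 exons by at least 1 base on the same strand.

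The parent was taken from the symbol (the coding gene named before P and a number), or otherwise from the best blastn 2.17.0 match of the plus strand (word size 16, e-value 1e-10). Copies were aligned locally to the parent's principal mRNA with Biopython 1.88 (match 1, mismatch -1, gap open -3, gap extension -0.5), and loci with at least 15 aligned bases were placed. Identity medians use copies aligned over at least 50% of their length. Intervals are exact (scipy 1.17.1). No test was run, since there is 1 list and no replicate. The placement was also run on simulated copies that carried substitutions but no insertions or deletions. The counting was run on simulated loci planted on pseudogene exons, where finding them was certain. These runs check the code only.

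Genes were named by rule. These are up to 6 pseudogenes per family with most loci, the 10 parents with most copies with a locus, the 3 highest and 3 lowest shares among parents with at least 10 copies, the 5 widest loci and the 2 leading parents per list. NUS1, RPL10 and others said to be named after their values were seen are outside it. The members and lists were chosen with earlier results of these data known. Alternatives were the overlap, strand, width, gene type, shared exons, merging of near loci, chromosomes, length and family naming.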

Additional observations from a re-analysis of the deposited data

How the results depend on the processing

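No paired analysis was possible because no library has a column of its own and no test was run. Of 104 alternative values for 13 results, 86 shares stayed within the interval of the reported share and 11 moved out of it. Some of the 86 could not move. All 786 loci lay on assembled chromosomes, so that setting repeated the reported values. Merging near loci cannot change whether a gene has a locus. Naming families by first letters gave the same shares. The other 7 are numbers of loci, which have no interval and ran from 701 with loci of up to 50 bases to 968 with strand ignored, against 786 as reported. With strand ignored, the share with a locus was 7.79% for all processed pseudogenes, 6.99% for families other than the 4 named and 60.2% for parents. With pseudogenes of at least 500 exonic bases only, it was 8.46% for all, 18.5% for RPL and 7.25% for the other families. Counting closest genes by sequence as parents gave 8% for RPL, since more pseudogenes then enter the family. The share of loci over a parent locus was 50.6% with at least 25 bases of overlap, 51.6% for parents with under 10% of the mRNA covered, 58% for parents found by sequence and 58% without the 10 leading parents. These last 5 were chosen after seeing the data. The list has no depth, so an absent locus does not show absent RNA, and the 50-base grid limits positions.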
